A study of Homo sapiens with 6 samples.

Results

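In AC16 cells given doxorubicin, 74 protein-coding genes that were almost without reads in vehicle-treated cells had at least 20 reads in every library. The genes were taken from a table of 58299 genes, 19850 of them protein-coding. A gene was chosen when its counts over the 3 DMSO libraries summed to 5 or less and each of the 3 doxorubicin libraries held 20 counts or more. Of 5971 protein-coding genes with 5 or fewer DMSO counts, 81 (1.36%) met both limits. Of these 81, 7 were set aside because their families (cornified envelope LCE1 genes, keratins, collagens, ABC transporters and desmosomal cadherins) were left out by name. The counts that chose the 74 genes are the same as those described here, so their difference between the treatments is a description and not a test.

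The doxorubicin group held 3 libraries from AC16 cells cultured with 100 nM doxorubicin for 48 h. The DMSO group held 3 libraries from AC16 cells cultured with the vehicle, 0.1% DMSO, for 48 h. AC16 is an immortalised human line made by fusing ventricular cardiomyocytes with transformed fibroblasts, and both groups come from that 1 line. Several cardiomyocyte markers were at or near 0 in both groups. TNNT2, cardiac troponin T, had 1, 0 and 2 counts in doxorubicin and 2, 0 and 2 in DMSO. MYH6 and MYH7, the cardiac myosin heavy chains, had at most 2 counts in any library. Others were low but present: DES, desmin, had 18, 12 and 5 counts in doxorubicin and 52, 37 and 30 in DMSO, and ACTC1, cardiac actin, had 1, 4 and 4 in doxorubicin and 5, 11 and 19 in DMSO. Fibroblast and mesenchymal genes were abundant, with VIM (vimentin) at 1213 ± 111 CPM in doxorubicin and 1855 ± 134 CPM in DMSO (SD, n = 3 each). CPM is a count scaled to the size of its library.

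Doxorubicin is an anthracycline that traps type II topoisomerases on DNA, breaks the DNA and can displace histones from chromatin. DNA breaks activate p53, a transcription factor that switches on genes of cell cycle arrest, repair and death. Tissue-restricted genes are silent in other cell types because their activators are missing and their chromatin is repressed. Silent genes with CpG-rich promoters are often held by Polycomb proteins, those with CpG-poor promoters more often by DNA methylation.

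The libraries held 17252862, 18665979 and 17844432 counts in doxorubicin and 17929419, 19571731 and 18573110 counts in DMSO. A gene without reads in DMSO could have been present at up to 0.0543 CPM, the level of 3 counts over the 3 libraries. Nothing in the labels tells whether replicate libraries derive from separate cultures, so a p-value here reflects the spread between samples, possibly a technical one. In bulk RNA, more cells with a transcript and more transcript per cell cannot be told apart. Below, 3 counts in a row belong to replicates 1, 2 and 3 of the group named.

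The 74 genes together had 7098, 5614 and 5387 counts in doxorubicin and 62, 57 and 59 in DMSO. The groups lie far apart in every member, as the choice requires. In DMSO the highest count of any member in any library was 4, and 14 members had no read at all. In doxorubicin the highest was 424. Scaled by library size, members averaged 1.22 to 17.9 CPM in doxorubicin, with a median of 2.71, and 21 of them exceeded 5 CPM. All of these levels are low for the cell: the median tested gene stood at 21.3 CPM in doxorubicin, and 0 members were above it.

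Most near-silent genes stayed that way. Of the 5971 protein-coding genes with 5 or fewer DMSO counts, 2053 (34.4%) had no read in any doxorubicin library, and 2244 (37.6%) had a read in some of them but not in all. The lowest doxorubicin count was 1 to 4 in 1310 genes, 5 to 9 in 211 and 10 to 19 in 72. The reverse pattern, at least 20 counts in every DMSO library and 5 or fewer over the doxorubicin libraries, was met by 0 protein-coding genes. The limits cut through a continuum. Just inside, CCK had 23, 20 and 23 counts in doxorubicin and 1, 0 and 0 in DMSO. Just outside, PAX3 had 19, 21 and 19 in doxorubicin and 0, 0 and 0 in DMSO. On the DMSO side, ESPN with 5 counts was taken, while SCN3B was not, with 318, 278 and 237 counts in doxorubicin and 3, 2 and 1 in DMSO.

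**Figure D1:**
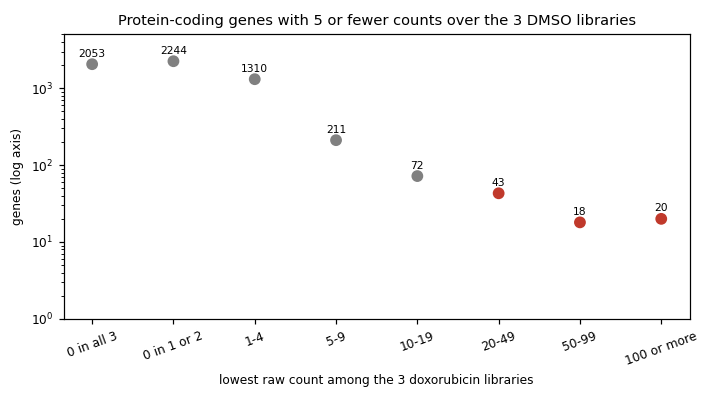
The 5971 protein-coding genes with 5 or fewer DMSO counts, grouped by the lowest raw count among the 3 doxorubicin libraries; each point is a number of genes on a log axis. Red points (43, 18 and 20 genes) are those with 20 counts or more in every doxorubicin library, 81 in all, of which 74 are described.

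In edgeR's quasi-likelihood test over 15358 genes, all 74 members were called higher in doxorubicin, with a largest adjusted p of 0.0019; 32.7% of all tested genes were called higher too. That call follows from the rule that chose the members and is given only for completeness.

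Sequences were looked up for the members' promoters. RefSeq promoter windows (GRCh38.p14), 250 bases before to 50 bases after an annotated start, were at hand for 50 of the 74 members. Since these are 67.6% of them, under the 80% needed, no share over the members was computed. The 6 windows printed belong to the members with the highest doxorubicin counts among those with a window. They show how unlike each other the promoters of the most abundant switched-on genes are. Capitals mark CG dinucleotides and the letters TATAAA read on either strand (TTTATA on the printed one).
LHX3: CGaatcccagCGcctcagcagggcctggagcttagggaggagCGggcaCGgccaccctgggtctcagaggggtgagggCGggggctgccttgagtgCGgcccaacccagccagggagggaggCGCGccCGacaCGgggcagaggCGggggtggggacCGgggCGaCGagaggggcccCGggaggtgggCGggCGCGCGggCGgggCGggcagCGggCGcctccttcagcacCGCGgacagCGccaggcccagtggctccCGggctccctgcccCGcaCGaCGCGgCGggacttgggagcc
SMOC1: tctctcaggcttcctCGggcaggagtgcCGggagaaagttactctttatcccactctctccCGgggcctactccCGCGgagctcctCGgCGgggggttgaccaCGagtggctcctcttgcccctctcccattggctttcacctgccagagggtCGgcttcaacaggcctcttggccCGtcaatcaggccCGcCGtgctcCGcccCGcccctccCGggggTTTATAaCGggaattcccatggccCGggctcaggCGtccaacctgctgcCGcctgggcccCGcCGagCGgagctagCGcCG
TREM2: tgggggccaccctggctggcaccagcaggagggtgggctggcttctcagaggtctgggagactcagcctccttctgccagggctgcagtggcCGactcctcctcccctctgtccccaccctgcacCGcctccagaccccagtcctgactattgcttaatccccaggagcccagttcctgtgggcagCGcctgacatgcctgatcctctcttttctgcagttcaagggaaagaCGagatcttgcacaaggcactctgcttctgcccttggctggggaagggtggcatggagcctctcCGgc
HES2: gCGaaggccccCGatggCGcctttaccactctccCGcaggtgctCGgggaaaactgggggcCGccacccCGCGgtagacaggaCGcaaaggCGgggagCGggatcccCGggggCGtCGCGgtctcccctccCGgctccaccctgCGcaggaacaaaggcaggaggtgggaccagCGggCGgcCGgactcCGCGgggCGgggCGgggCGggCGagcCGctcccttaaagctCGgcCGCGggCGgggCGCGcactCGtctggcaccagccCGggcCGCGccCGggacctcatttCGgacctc
OPCML: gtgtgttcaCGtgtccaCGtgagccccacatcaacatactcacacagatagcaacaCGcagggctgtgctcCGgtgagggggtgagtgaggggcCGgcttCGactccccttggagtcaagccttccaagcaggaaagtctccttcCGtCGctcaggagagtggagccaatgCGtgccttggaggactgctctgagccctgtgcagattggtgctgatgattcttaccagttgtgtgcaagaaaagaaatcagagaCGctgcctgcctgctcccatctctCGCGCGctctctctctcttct
POU3F1: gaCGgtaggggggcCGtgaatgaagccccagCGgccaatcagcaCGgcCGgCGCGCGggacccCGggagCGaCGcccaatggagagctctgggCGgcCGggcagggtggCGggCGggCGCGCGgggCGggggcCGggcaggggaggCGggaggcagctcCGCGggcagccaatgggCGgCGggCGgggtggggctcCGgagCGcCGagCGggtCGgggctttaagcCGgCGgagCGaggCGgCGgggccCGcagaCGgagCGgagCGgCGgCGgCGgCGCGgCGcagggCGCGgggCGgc

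The windows lie at chr9:136205079-136205378 for LHX3, chr14:69879166-69879465 for SMOC1, chr6:41163067-41163366 for TREM2, chr1:6419870-6420169 for HES2, chr11:133532452-133532751 for OPCML and chr1:38046744-38047043 for POU3F1. All but that of SMOC1 lie on the minus strand. The windows of HES2 and SMOC1 lie wholly inside the spans of these genes as counted, away from their outermost starts. The POU3F1 window held 49 CG dinucleotides and 82.3% G or C. Its ratio of observed to expected CG, 1.06, was at percentile 93.5 of the 15321 promoter windows of genes in the table. HES2 held 39 CG with a ratio of 0.909 (percentile 74.1). LHX3 held 32 with a ratio of 0.717 (percentile 43.3), and SMOC1 held 24 (percentile 42.6). At the other end TREM2 held 5 CG with a ratio of 0.169 (percentile 10.1), and OPCML held 13 (percentile 30.2). CpG-rich and CpG-poor windows thus both occur among the most abundant members. The SMOC1 window was the only 1 of the 6 with TATAAA, found on the strand opposite to the gene; 9.59% of all windows hold it on either strand. The AP-1 letters TGANTCA (both strands, 5.73% of all windows) and the p53 half-site decamer (both strands, 5.92%) were not found in any of the 6. The motifs searched share no bases with each other in these windows, and a match or its absence in 300 bases describes only those letters.

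Transcription factor genes were among the strongest members. LHX3 (chr9:136196250-136205128, GRCh38), a LIM-homeodomain factor of pituitary and motor neuron development, had 424, 278 and 266 counts in doxorubicin and 2, 0 and 0 in DMSO. It was the most abundant member, at 17.9 ± 5.38 CPM in doxorubicin (SD, n = 3), 491 times its level in DMSO with a 95% counting interval of 136 to 4060. These intervals are exact and cover counting error only. HES2 (chr1:6412418-6424670), a basic helix-loop-helix repressor of the hairy and enhancer-of-split family, had 318, 195 and 215 counts in doxorubicin and 0, 2 and 0 in DMSO, a ratio of 369 (102 to 3055). POU3F1 (chr1:38044611-38046794), a POU-domain factor of Schwann cells and keratinocytes, had 235, 175 and 145 counts in doxorubicin and no DMSO read. It was at least 188-fold higher, taking 3 counts over all DMSO libraries as the floor. The 3 genes share doxorubicin replicate 1 as their highest library. FOXS1 (forkhead), TBX4 (hindlimb and lung), NKX1-2 (an NK-type homeobox gene) and NOTO (a homeobox gene of the notochord, known from mouse) were lower, at 1.39 to 2.81 CPM. Of the exon bases of NKX1-2, 36.4% lie in exons of an opposite-strand gene, which was at 0 in every library.

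The relatives of these factors differed from family to family. Of the 4 POU3F genes, all with 5 or fewer DMSO counts, 1 was switched on, against 1.36% of all such protein-coding genes. Among 5 tested LHX genes LHX3 was called higher, while LHX2, LHX4 and LHX9 fell. LHX9 had 5.46 ± 0.859 CPM in doxorubicin and 12.6 ± 1.78 CPM in DMSO (log2 fold change -1.20, edgeR adjusted p = 3.3e-06). HES genes went the other way, with 4 of 5 tested called higher, against 32.7% of all tested genes. The 4 include HES2, which was chosen for being high. HES6 had 52.9 ± 7.69 CPM in doxorubicin and 8.12 ± 0.239 CPM in DMSO, and HES1, the classical target of Notch, had 9.83 ± 0.752 CPM in doxorubicin and 2.75 ± 0.943 CPM in DMSO. In the wider POU-domain list 4 of 5 tested genes rose, POU3F1 counted, and 1 fell. Its second-largest change was that of POU2F2, with 26.1 ± 1.87 CPM in doxorubicin and 7.50 ± 1.10 CPM in DMSO.

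Signalling and matrix genes included ligands and a receptor. SMOC1 (chr14:69854131-70032366), a secreted calcium-binding protein that antagonises BMP signals, had 296, 250 and 239 counts in doxorubicin and 0, 0 and 3 in DMSO, a ratio of 265 (90.5 to 1290). WNT4 (chr1:22117305-22143969), a Wnt ligand of kidney and female reproductive tract development, had 145, 129 and 126 counts in doxorubicin and 3, 1 and 0 in DMSO. RET (chr10:43077027-43130351), the receptor tyrosine kinase for GDNF-family ligands, had 120, 98 and 72 counts in doxorubicin and 1, 0 and 2 in DMSO. As the choice requires, no library of 1 group reached the range of the other in these genes. Over all tested genes, 34.8% had every doxorubicin library above every DMSO library. Of 9 tested WNT genes 3 were called higher, the chosen WNT4 counted, and 4 lower. Among all tested genes 32.7% were called higher and 32.0% lower. WNT9A, above the DMSO limit, had 274, 212 and 224 counts in doxorubicin and 8, 10 and 5 in DMSO. ITIH5, an inter-alpha-trypsin inhibitor heavy chain, had no DMSO read and was at least 54.4-fold higher. KCP, a modulator of BMP signals, CRTAC1, a cartilage matrix protein, and FIBIN, a fin bud factor named from zebrafish, stood at 1.40 to 2.38 CPM in doxorubicin.

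Genes best known from neurons and endocrine cells were the largest class, 18 of the 74. The classes were assigned after the values were seen, and no share of such genes among all near-silent genes was computed. OPCML (chr11:132414977-133532519), a GPI-anchored adhesion protein of the IgLON family, had 250, 231 and 218 counts in doxorubicin and 2, 2 and 0 in DMSO, a ratio of 177 (68.9 to 652). NEFL (chr8:24950955-24957110), the light neurofilament subunit, had 253, 168 and 152 counts in doxorubicin and 0, 1 and 0 in DMSO, a ratio of 581 (104 to 22998). UNC13A (chr19:17601328-17688365), which primes synaptic vesicles, had 134, 146 and 133 counts in doxorubicin and 1, 1 and 1 in DMSO. Its doxorubicin libraries had the smallest coefficient of variation of the 74 members, 1.75%. ACHE (chr7:100889994-100896974), acetylcholinesterase, had 144, 125 and 107 counts in doxorubicin and 3, 2 and 0 in DMSO. HID1 (chr17:74950743-74973166), a factor of dense core vesicle formation, had 145, 130 and 96 counts in doxorubicin and 3, 2 and 0 in DMSO. CNTN2 (chr1:205042937-205078284), an axonal contactin, had 46, 42 and 37 counts in doxorubicin and 1, 0 and 0 in DMSO. The others work in vesicle release (CPLX1, RIMS4), ion transport (SCN4B, CACNB4, ATP2B2), receptor scaffolding (GRIP2), axon guidance (RGMA), N-acetylaspartate breakdown (ASPA), protein palmitoylation (ZDHHC22), actin control (PHACTR3) and peptide signalling (CCK), beside TMEM151A. They ranged from 1.22 CPM for CCK to 4.97 CPM for GRIP2.

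Other neuronal markers moved in both directions. In the list of 40 neuronal genes 19 had 5 or fewer DMSO counts and 2 of those, NEFL and CNTN2, were switched on. Of all protein-coding genes with 5 or fewer DMSO counts 1.36% met the count limits. Of the 21 tested genes of the list 11 were higher, 5 lower and 5 not called, against 32.7% higher and 32.0% lower over all tested genes. The 11 include NEFL and CNTN2, which were chosen for being high. SNAP25, a synaptic fusion protein, fell to 72, 93 and 96 counts in doxorubicin, against 119, 130 and 116 in DMSO (log2 fold change -0.46, edgeR adjusted p = 0.015). ELAVL4 had 3, 3 and 4 counts in doxorubicin and none in DMSO. Without the 2 members, the summed level of the list was 245 to 252 CPM in doxorubicin and 232 to 242 CPM in DMSO, and 1 of its genes was at 0 in every library. All 3 neurofilament genes were called higher, the chosen NEFL counted. NEFM had 63, 52 and 46 counts in doxorubicin and 2, 3 and 7 in DMSO. Over all intermediate filament genes other than keratins, 7 of 14 tested were higher, NEFL counted, and 5 lower.

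Epithelial and skin genes made up 11 members. FAM83H (chr8:143723933-143733801), which organises keratin filaments and is needed for tooth enamel, had 370, 245 and 290 counts in doxorubicin and 0, 2 and 2 in DMSO, a ratio of 230 (89.3 to 844). Its relative FAM83F (chr22:39994949-40043529) had 42, 34 and 29 counts in doxorubicin and none in DMSO. Of 6 FAM83 genes with 5 or fewer DMSO counts these 2 were switched on, against 1.36% of all such protein-coding genes. Of the relatives expressed in DMSO, FAM83G rose to 139 ± 3.79 CPM in doxorubicin, against 106 ± 12.9 CPM in DMSO, and the mitotic FAM83D fell to 102 ± 5.80 CPM in doxorubicin, against 158 ± 7.46 CPM in DMSO. CSTA (chr3:122325244-122341972), the keratinocyte protease inhibitor cystatin A, had 301, 142 and 199 counts in doxorubicin and 2, 0 and 0 in DMSO, a ratio of 326 (89.8 to 2695). Its widely expressed relative CSTB was not called, at 67.2 ± 5.70 CPM in doxorubicin and 68.4 ± 5.77 CPM in DMSO. ESPN (chr1:6424776-6461367), an actin-bundling protein of hair cell stereocilia and microvilli, had 177, 146 and 131 counts in doxorubicin and 1, 4 and 0 in DMSO. GJB5 (chr1:34755047-34758512), a connexin of skin, had 133, 131 and 124 counts in doxorubicin and 1, 0 and 1 in DMSO. VSIG1 (chrX:108044970-108079184), an adhesion protein of stomach epithelium, had 112, 107 and 118 counts in doxorubicin and 0, 1 and 1 in DMSO. SERPINB5 (chr18:63476761-63505085), the epithelial serpin maspin, had 45, 50 and 37 counts in doxorubicin and none in DMSO. RNASE7, a skin antimicrobial ribonuclease and the 1 of 12 RNase A family genes to be switched on, and TRPM6, a magnesium channel, also had no DMSO read. ANO9, an anoctamin, and TMPRSS7, a membrane serine protease, complete the class.

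Of 42 epidermal and squamous markers 12 had no read in any library, among them IVL, LORICRIN and SPRR1B, which define the cornified layer. FLG, filaggrin of the same layer, rose, with 147, 119 and 129 counts in doxorubicin and 18, 10 and 7 in DMSO. Of the 30 markers with 5 or fewer DMSO counts, CSTA alone met the rule, against 1.36% of all such protein-coding genes. Outside that list, LCE1C, LCE1E, LCE1F, KRT9 and DSC3, all genes of skin, met the same count limits and are among the 7 left out by family name. Of the 10 tested genes of that list 9 were higher and 1 lower, against 32.7% higher and 32.0% lower over all tested genes. The 9 include CSTA, which was chosen for being high. SFN, 14-3-3 sigma, also among them, had 359, 281 and 301 counts in doxorubicin and 7, 11 and 10 in DMSO. Summed without CSTA, the list stood at 158 to 192 CPM in doxorubicin and 39.2 to 50.3 CPM in DMSO. TP63, the master regulator of squamous cells, had 16, 17 and 8 counts in doxorubicin and 0, 0 and 1 in DMSO. In simple epithelia 5 of 10 tested markers were higher and 3 lower, and the list summed to 51.7 to 59.9 CPM in doxorubicin and 29.4 to 39.2 CPM in DMSO. EPCAM had 8, 8 and 7 counts in doxorubicin and 11, 14 and 5 in DMSO, while CEACAM1 had 588, 568 and 473 in doxorubicin and 2, 4 and 7 in DMSO. The part of these cell type genes in the members' levels was not tested.

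Immune genes formed 10 members. TREM2 (chr6:41158506-41163186), a lipid-sensing receptor of macrophages and microglia, had 287, 217 and 246 counts in doxorubicin and 0, 1 and 0 in DMSO, a ratio of 761 (136 to 30090). Per kilobase of exon it was the most abundant member, at 12.6 CPM per kb in doxorubicin. The gene of its signalling adaptor, TYROBP, had 0 counts in all 6 libraries. Neighbouring TREML1 and TREML2 had 16 and 4 counts over the doxorubicin libraries and 0 in DMSO. The remaining members act in cytoskeleton and vesicle traffic of leukocytes (LSP1, DOCK8, RAB37, FYB1), as cytokines or ligands (IL7, TNFSF15, ICOSLG) or in nucleic acid defence (APOBEC3H, PYHIN1). DOCK8, APOBEC3H and PYHIN1 had no DMSO read and were at least 46.7-fold, 40.9-fold and 25.0-fold higher. All 6 tested APOBEC3 genes were called higher, against 32.7% of all tested genes, and the 6 include APOBEC3H, which was chosen for being high. APOBEC3C had 627 ± 46.2 CPM in doxorubicin and 87.8 ± 6.62 CPM in DMSO. The APOBEC3 genes are alike in sequence, so reads may be shared among them. Of 25 myeloid markers with 5 or fewer DMSO counts TREM2 alone met the rule, against 1.36% of all such protein-coding genes. LAPTM5, a lysosomal protein of leukocytes, rose, with 170, 105 and 117 counts in doxorubicin and 8, 5 and 6 in DMSO. CD14 was not called, with 18, 17 and 16 counts in doxorubicin and 21, 30 and 16 in DMSO, and CSF1R fell to 23, 25 and 20 in doxorubicin, against 34, 42 and 36 in DMSO. Of 7 tested myeloid genes 3 were higher, including TREM2, which was chosen for being high, and 2 lower. The myeloid list without TREM2 summed to 19.4 to 24.9 CPM in doxorubicin and 7.95 to 10.1 CPM in DMSO, with 3 of its genes at 0 throughout. Of 7 tested lymphoid genes 3 were higher and 1 lower, PAX5 with 27, 13 and 21 counts in doxorubicin and none in DMSO. That list summed to 82.6 to 106 CPM in doxorubicin and 62.4 to 89.8 CPM in DMSO, with 2 genes at 0 throughout. Whether a few cells of another type contributed was not tested.

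Liver and metabolic genes were the smallest class, 6 members at 2.11 to 4.85 CPM in doxorubicin. GLS2 (chr12:56470944-56488414), the p53-responsive mitochondrial glutaminase, had 109, 86 and 68 counts in doxorubicin and 0, 1 and 2 in DMSO. Exons of the opposite-strand gene SPRYD4 cover 77.1% of its exon bases, and reads from the 2 strands cannot be told apart in these libraries. SPRYD4 itself was not called, at 16.8 ± 1.15 CPM in doxorubicin and 16.1 ± 0.711 CPM in DMSO. CYP4F3 (chr19:15640897-15662825), a leukotriene hydroxylase, had 78, 70 and 53 counts in doxorubicin and 1, 1 and 1 in DMSO. CYP4F2 (chr19:15878023-15898120), a fatty acid and vitamin K hydroxylase, had 51, 32 and 32 counts in doxorubicin and 1, 2 and 2 in DMSO. These 2 of 6 CYP4F genes are close paralogs, so their split is uncertain. FETUB, a liver-secreted fetuin, SLC2A9, a urate transporter, and SAA1, an acute-phase protein, complete the class. SAA1 has a near-identical copy, SAA2, and its count is likewise uncertain. Of 4 tested liver markers 3 were higher and 0 lower, against 32.7% higher and 32.0% lower over all tested genes. HPX had 103, 136 and 91 counts in doxorubicin and 2, 5 and 2 in DMSO. ALB had 3, 5 and 5 counts in doxorubicin and 2, 1 and 4 in DMSO.

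The remaining 15 members fit no class. KLRG2 (chr7:139452690-139483712), a lectin-like membrane protein, had 121, 79 and 93 counts in doxorubicin and 2, 1 and 0 in DMSO. KANK3 (chr19:8322584-8343262), an ankyrin-repeat protein linked to actin, had 91, 95 and 94 counts in doxorubicin and 1, 2 and 2 in DMSO. ENSG00000285188 (chr19:18207961-18255419), which has no symbol, had 131, 140 and 139 counts in doxorubicin and 1, 2 and 1 in DMSO. Other genes' exons cover 87.4% of its exon bases, 77.3% those of same-strand PDE4C, a cAMP phosphodiesterase gene with 331, 432 and 299 counts in doxorubicin and 0, 4 and 3 in DMSO. DYNLT4, a dynein light chain gene of 1 exon, ends against the opposite-strand PLK3, which covers 10.2% of it and had 6579 counts in doxorubicin and 806 in DMSO. MAB21L2 (eye development), GPR143 (melanosomes), CFAP74 (cilia), CALML6 (calmodulin-like), LCN15 (lipocalin), ACTBL2 (an actin whose reads other actins may share), NUDT10 (a Nudix hydrolase with a near copy, NUDT11), PLEKHG1, SHE, PRR29 and LRATD2 made up the rest. The only relative of LRATD2, LRATD1, rose with 211, 198 and 180 counts in doxorubicin and 1, 4 and 1 in DMSO, 1 count over the limit. Opposite-strand ICAM2, with 270 counts over the doxorubicin libraries and 19 over the DMSO libraries, and an antisense gene cover 37.7% of PRR29. RPS28, which was not called, covers 10.2% of KANK3. In all, exons of other genes covered over 10% of the exon bases of 10 members and 10% or less in 64.

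**Figure D2:**
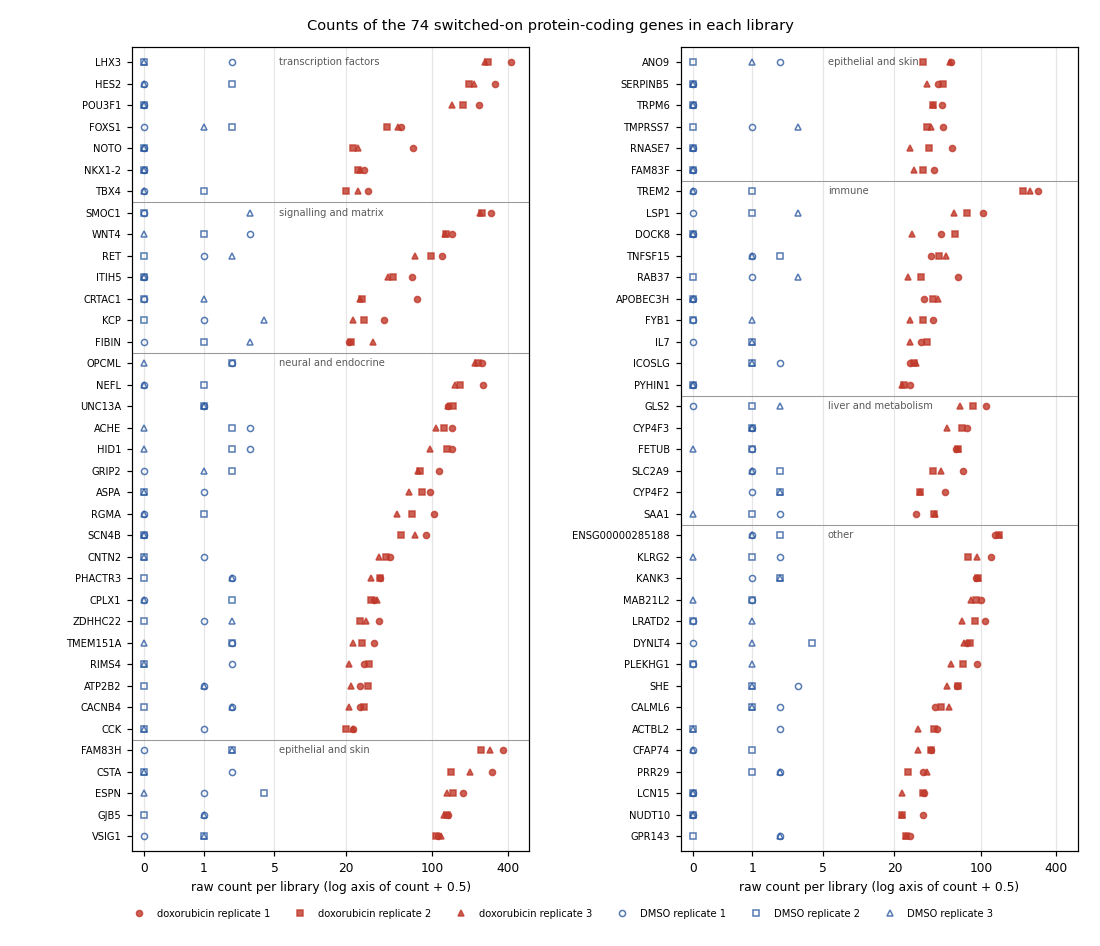
Raw counts of the 74 genes in each library, on a log axis of count + 0.5; red filled symbols are the 3 doxorubicin libraries and open blue symbols the 3 DMSO libraries, with genes grouped by class. DMSO counts lie between 0 and 4 and doxorubicin counts between 20 and 424 for every gene.

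Ranked per kilobase, TREM2 was followed by CSTA (8.67 CPM per kb), DYNLT4 (5.61), GJB5 (5.27), POU3F1 (4.69) and LHX3 (4.68), all levels in doxorubicin. POU3F1 and LHX3 do not differ beyond their spread, and CACNB4 was lowest, at 0.038 CPM per kb. The 20 members with the highest counts held 58.7% of the members' doxorubicin counts.

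p53 targets were compared as a separate list. Of 73 tested genes of that list 72 rose and 0 fell, and 6 of its genes had 5 or fewer DMSO counts. GLS2 and SERPINB5 were the 2 among them to be switched on, and both are counted in the 72. PADI4, a peptidylarginine deiminase, was outside the rule with 774, 542 and 510 counts in doxorubicin and 1, 2 and 5 in DMSO. Over the 14 cell type lists, 292 protein-coding genes had 5 or fewer DMSO counts and 4 (1.37%) were switched on, against 1.36% of all such genes. The 1.36% counts the 7 genes left out by family name, none of which is in the cell type lists, so the sets are not alike. In the cell type lists not described above no gene was switched on. Over all tested genes 32.7% were higher and 32.0% lower. The tested genes of these lists were 3 higher and 2 lower of 8 for glia, 2 and 0 of 4 for red cells and platelets, 3 and 2 of 10 for endothelium, and 3 and 2 of 7 for germline. They were 3 and 1 of 5 for kidney, 1 and 0 of 3 each for endocrine pancreas and for retina and sensory cells, and 4 and 1 of 6 for striated muscle. In muscle NPPB, a natriuretic peptide, had 99, 124 and 132 counts in doxorubicin and 6, 8 and 20 in DMSO.

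The members' levels varied among the doxorubicin libraries. Replicate 1 was the highest of the 3 in 55 of 74 members (74.3%), against 37.1% of all tested genes. Among 1694 other genes called higher and in the same range of level it was the highest in 45.9%. The ratio of replicate 1 to the mean of replicates 2 and 3 had a median of 1.29 over members, 1.04 over those other higher genes and 0.994 over all tested genes. NOTO had 3.98 CPM in replicate 1 and 1.21 and 1.40 in replicates 2 and 3. CRTAC1 had 4.26 CPM in replicate 1 and 1.43 and 1.45 in replicates 2 and 3. Without replicate 1 the doxorubicin mean dropped to 1.31 CPM in NOTO, against 2.20 CPM with it, and to 1.44 CPM in CRTAC1, against 2.38 CPM with it. They were the 2 members whose mean moved by over 1.5 times. The median coefficient of variation in doxorubicin was 19.6% over members and 8.33% over all tested genes. These 2 sets differ in level, with medians of 2.71 CPM for members and 21.3 CPM for all tested genes in doxorubicin. Counting error is larger at low counts, and its part in the gap was not tested. SAA1, FIBIN and APOBEC3H ran the other way, SAA1 with a ratio of 0.737.

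**Figure D3:**
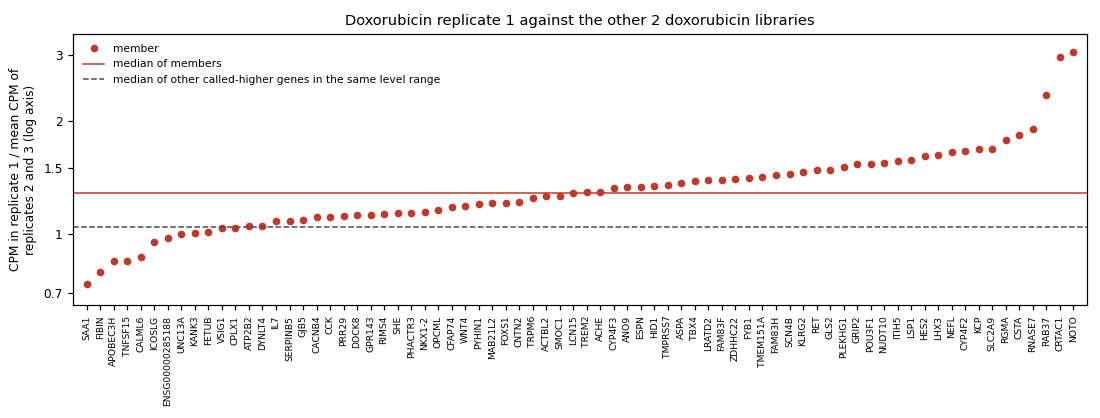
For each of the 74 genes, CPM in doxorubicin replicate 1 divided by the mean CPM of doxorubicin replicates 2 and 3, on a log axis and sorted. The solid line is the members' median (1.29) and the dashed line that of other higher genes of the same level (1.04); NOTO (3.04) and CRTAC1 (2.96) are highest.

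Genes were also chosen without 1 library and then read in it, as a description. The genes that pass in a left-out doxorubicin library are the 74 members by definition, so only the number chosen can vary. Without doxorubicin replicate 1 the rule chose 76 genes, and 74 of them had 20 counts or more in that library. Without replicate 2 it chose 87, of which 74 passed in the left-out library, and without replicate 3 it chose 81, of which 74 passed. Of the 73, 78 and 73 genes chosen without DMSO replicate 1, 2 or 3, 68, 65 and 65 had 3 counts or fewer there, and the highest count was 9.

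Members were spread over the genome. Chromosome 1 held 11 (14.9%, against 10.3% of protein-coding genes), chromosome 11 held 7 and chromosome 3 held 6. Chromosomes 13 and 16 held none. Within 500 kb of another member lay 8 genes, in 4 pairs, all on opposite strands. The outermost annotated exons of HES2 and ESPN are divided by 105 bases, and the genes point away from each other. The promoter window printed for HES2 lies inside HES2 and not between HES2 and ESPN. CALML6 and CFAP74 lie 4.65 kb apart, RAB37 and HID1 203 kb, and CYP4F3 and CYP4F2 215 kb. A single exon block was annotated for 6 members (8.11%, against 5.52% of protein-coding genes): POU3F1, FOXS1, MAB21L2, DYNLT4, ACTBL2 and FIBIN.

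The counts of genes next to the members were not used by the rule. Some of these genes share exon bases with a member, and in unstranded libraries reads may be shared. Of the tested ones PDE4C, ICAM2, PLK3, TNFRSF25 and ATP6V1F were called higher. SPRYD4, RPS28 and ZC2HC1A were not called, and SLC6A6 was lower. These overlapping genes are kept in the shares below, which are therefore not fully separate from the choice. Within 50 kb lay 204 other protein-coding genes that did not meet the count limits, and 123 were expressed enough to test. Of these 55 (44.7%) were called higher and 42 (34.1%) lower in doxorubicin by edgeR. Over all tested protein-coding genes 33.6% were higher and 35.3% lower. Around 4377 protein-coding genes that stayed at 5 or fewer counts in each group, 33.9% of 3729 tested neighbours were higher and 32.5% lower. The median log2 fold change was 0.14 for the members' neighbours and 0.0071 for those of the genes that stayed low. The difference between the shares was not tested, and neighbours of 1 member share a locus. At 20 kb 43.5% of 69 and at 200 kb 42.4% of 340 tested neighbours were higher. A tested neighbour was found for 56 members, and 35 had at least 1 called higher.

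**Figure D4:**
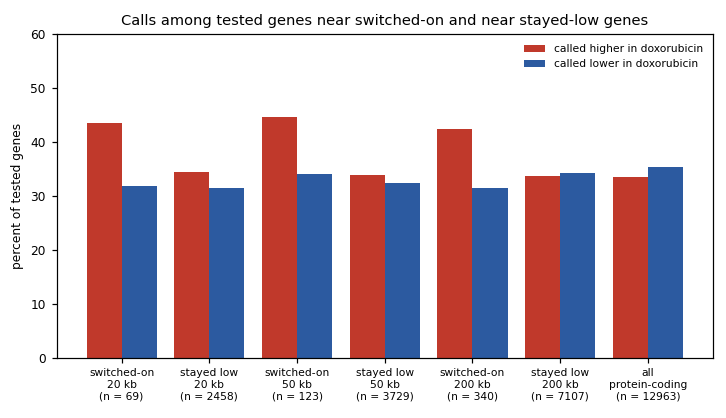
Percent of tested genes called higher (red) and lower (blue) in doxorubicin, within 20, 50 and 200 kb of the switched-on genes, around genes that stayed at 5 or fewer counts in each group, and over all tested protein-coding genes. Near switched-on genes 42.4 to 44.7% were higher, near stayed-low genes 33.8 to 34.4%.

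Single loci differed. Beside HES2 and ESPN, TNFRSF25, a death receptor, had 22.3 ± 2.24 CPM in doxorubicin and 5.08 ± 0.492 CPM in DMSO (log2 fold change 2.13, adjusted p = 3.4e-10), and PLEKHG5 and ACOT7 rose as well. TNFRSF25 overlaps 2.70% of the ESPN exon bases on the opposite strand. Beside NEFL, NEFM rose with a log2 fold change of 3.73 (edgeR adjusted p = 2.8e-07). Beside KANK3, ANGPTL4, a secreted inhibitor of lipoprotein lipase, had 27.7 ± 9.61 CPM in doxorubicin and 1.36 ± 0.675 CPM in DMSO. Beside RET, CSGALNACT2 rose to 84.6 ± 2.99 CPM in doxorubicin, against 46.8 ± 2.54 CPM in DMSO. TBX2 next to TBX4, IFI16 next to PYHIN1 and APOBEC3G next to APOBEC3H, all relatives of the member, were higher too, with log2 fold changes of 1.24, 1.52 and 2.07. Near LHX3 and WNT4 the nearest tested gene was lower. QSOX2, which ends 1204 bases upstream of LHX3 on its strand, fell to 80.9 ± 2.08 CPM in doxorubicin, against 112 ± 6.18 CPM in DMSO. CDC42 near WNT4 fell with a log2 change of -0.41, and SRRT, 1329 bases from ACHE, fell with -0.93. Around ACHE, TRIP6 rose with a log2 change of 0.97, and the nearest tested gene, UFSP1, was not called. UTP11, the nearest gene to POU3F1, was not called, at 63.9 ± 2.90 CPM in doxorubicin and 64.1 ± 3.90 CPM in DMSO. SMOC1, TREM2 and OPCML had no tested neighbour within 50 kb. A tested gene within 20 kb upstream on the same strand was found for 7 members. Of those genes 4 were higher, APOBEC3G counted, and 2 lower, against 32.7% higher and 32.0% lower over all tested genes.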

How the data were processed

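Poly(A) RNA was sequenced from 3 doxorubicin and 3 DMSO libraries of AC16 cells, as unstranded TruSeq v2 libraries, per the labels' protocols. What the authors deposited are unnormalised counts per gene, summed over exons as featureCounts writes them, per the file headers, with 1 column per library and 0 columns of other samples. STAR, Subread with featureCounts, SAMtools and GRCh38 are named in the submitters' processing notes. Versions, and how reads shared by overlapping genes or copies were counted, are not given in the sources used here.

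Of 58299 gene IDs, 57717 had a symbol in a name table and 58179 were in GENCODE release 29, which gave gene types; positions are those of the table, 1-based. The members were chosen by the count limits, and the members and the 17 gene lists were chosen with earlier results of these data known. Classes and the 26 gene families were assigned from textbook knowledge after the values were seen. Named with counts in every library were the 20 members with the highest doxorubicin counts, the members in a list and those of families with 2 members; of non-members, the 2 called genes of each list with the largest change and neighbours of those members. Family relatives, defining markers and further neighbours were named after their values were seen.

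Differences were tested in edgeR 4.0.16 under R 4.3.3 (filterByExpr, TMM scaling, robust two-sided quasi-likelihood test, doxorubicin minus DMSO, Benjamini-Hochberg over 15358 genes, called at an adjusted p under 0.05). CPM are TMM-scaled, as mean ± SD. The ratio of 2 groups uses summed counts and effective library sizes, with an exact 95% interval. Chi-square per degree of freedom between libraries of a group was 2.82 to 9.39, so each counted as 1 replicate. The procedure was checked on simulated counts with known changes. Alternatives were DESeq2 1.42.0, RLE scaling, library totals only, 2 other filters, a replicate block, each library left out, and other limits and distances. The planned share of CpG-rich promoters was not computed. Some genes that the naming rule would include are not reported here.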

Additional observations from a re-analysis of the deposited data

How the results depend on the processing

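The number of genes chosen depends on the limits: 14 with no DMSO read at all, 116 with up to 10 DMSO counts, 144 with at least 10 counts in each doxorubicin library and 33 with at least 50, against 74. Scaling counts to a common library size gave 69, leaving out no family 81, leaving out genes of over 10% exon overlap 64 and of over 50% 72 (the last added after seeing the data). Leaving out 1 library gave 73 to 87. All 74 members were called higher under each alternative fit, which follows from the rule that chose them and is no check. In the main fit 32.7% of all tested genes were called higher. Over all genes, leaving out 1 library gave 4703 to 5005 higher and 4519 to 4824 lower, and among neighbours within 50 kb 53 to 57 higher and 39 to 42 lower. Within 20 kb 30 neighbours were higher and 22 lower, and within 200 kb 144 and 107. Members with another member close by numbered 4 at 100 kb and 14 at 1000 kb. Replicate numbers did not pair the samples, with correlations of same-numbered deviations of 0.052, -0.023 and 0.027. With a replicate block 5003 genes were higher and 4917 lower. DESeq2 called 5035 higher and 4494 lower of 22679 tested. The planned share of CpG-rich promoters was not run, since 67.6% of members had a sequence. At this depth counts of 1 to 5 in DMSO leave wide ratios, and a gene with no DMSO read could have been present there at up to 0.0543 CPM.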
